A study of Homo sapiens with 24 samples.

Results

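The clustered core histone genes encode the histones H2A, H2B, H3 and H4 that package newly made DNA, and they sit side by side in a few dense gene clusters. The members were all genes whose current symbol is H2AC, H2BC, H3C or H4C followed by a number, as found by updating the array annotation through its gene identifiers. The rule gave 63 members among the 20046 genes that have a probe of their own on the array, and it used no measured value. H2A had 17 members, H2B had 18, H3 had 13 and H4 had 15. On chromosome 6 the large HIST1 cluster held 49 of them, and on chromosome 1 the HIST2 cluster held 11. HIST3, also on chromosome 1, held H2AC25 and H2BC26, and HIST4 held H4C16 alone.

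The study treated a pair of diffuse large B-cell lymphoma cell lines with ITF-A or ITF-B, hydroxamic acid inhibitors of class I, IIb and IV histone deacetylases, and measured RNA on Illumina HumanHT-12 v4 BeadChips. DoHH2 is a line of the germinal center B-cell (GCB) type and TMD8 is a line of the activated B-cell (ABC) type. Cells received 100 nM ITF-A, 200 nM ITF-B or the solvent DMSO for 8 hours, and each compound had its own DMSO set in each line, which gave 8 groups of 3 independent experiments on 24 arrays. Each line is 1 established culture without a second line of its type, so a difference between the lines cannot be told apart from a difference between the types. Each group combined cells from the whole culture, so a change in level cannot be told apart from a change in the share of cells in S phase.

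Core histone genes are known as replication-dependent genes: their transcription rises when cells enter S phase, and their mRNAs normally end in a stem-loop instead of a poly(A) tail. Stem-loop binding protein, SLBP, guides that end formation, and histone mRNAs are quickly destroyed when DNA synthesis stops. Some members can also make polyadenylated mRNAs, mainly in differentiated cells. The RNA here was labelled by a kit that starts from an oligo(dT) primer, so the arrays read polyadenylated RNA best. A level given below is therefore not a measure of the total mRNA of a histone gene, and the share of each form was not measured.

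Promoters of these genes carry a small set of shared elements, and a few are printed here because they differ between subfamilies and because their genes anchor the results that follow. RefSeq promoters (GRCh38.p14, 250 bases before to 50 bases after the annotated start) were found for 58 of the 63 members, among 35116 promoters in all. The letters CCAAT were present, on either strand, in all 16 H2A, all 18 H2B and all 11 H3 promoters, but in 3 of 13 H4 promoters, against 34.6% of all promoters. The octamer ATTTGCAT, searched on both strands, was found in 14 of 18 H2B and 11 of 16 H2A promoters, in 1 of 11 H3 and in 0 of 13 H4 promoters, against 1.77% of all promoters. TATAAA was found in 39 of 58 member promoters against 11.5% of all. No motif of the 3 contains another. The following sequences run 5′ to 3′ along the gene's strand, with each match to one of these motifs, or to its reverse complement, in capitals. H2BC21 (chr1:149886633-149886932, minus strand) and H2BC8 (chr6:26216639-26216938, minus strand) had the largest mean changes, H2BC12 (chr6:27146809-27147108, minus strand) is an H2B gene with a small change in TMD8, H4C14 (chr1:149832407-149832706, plus strand) led the H4 genes, and H3C8 (chr6:26271364-26271663, minus strand) had the largest difference between the lines.
H2BC21: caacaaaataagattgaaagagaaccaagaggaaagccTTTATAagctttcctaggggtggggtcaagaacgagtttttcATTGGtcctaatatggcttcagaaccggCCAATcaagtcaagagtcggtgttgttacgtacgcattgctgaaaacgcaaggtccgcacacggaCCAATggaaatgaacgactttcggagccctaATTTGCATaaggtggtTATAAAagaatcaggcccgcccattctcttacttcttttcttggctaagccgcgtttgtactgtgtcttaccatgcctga
H2BC8: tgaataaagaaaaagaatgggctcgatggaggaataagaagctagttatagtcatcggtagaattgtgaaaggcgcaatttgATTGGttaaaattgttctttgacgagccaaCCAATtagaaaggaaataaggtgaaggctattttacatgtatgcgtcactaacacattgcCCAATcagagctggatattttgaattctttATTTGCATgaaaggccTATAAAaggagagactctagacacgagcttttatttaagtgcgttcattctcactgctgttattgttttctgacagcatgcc
H2BC12: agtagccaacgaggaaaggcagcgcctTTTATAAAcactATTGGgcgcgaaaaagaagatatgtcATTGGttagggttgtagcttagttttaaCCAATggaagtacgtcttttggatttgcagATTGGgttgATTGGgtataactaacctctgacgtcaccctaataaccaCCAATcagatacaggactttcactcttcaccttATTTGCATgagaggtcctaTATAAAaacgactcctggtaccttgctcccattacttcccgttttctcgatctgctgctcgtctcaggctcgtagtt
H4C14: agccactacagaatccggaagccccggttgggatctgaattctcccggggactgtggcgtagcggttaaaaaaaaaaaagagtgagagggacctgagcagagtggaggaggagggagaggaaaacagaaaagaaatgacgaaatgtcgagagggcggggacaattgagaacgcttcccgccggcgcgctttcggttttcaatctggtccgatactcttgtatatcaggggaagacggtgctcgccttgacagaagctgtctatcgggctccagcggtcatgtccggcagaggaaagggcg
H3C8: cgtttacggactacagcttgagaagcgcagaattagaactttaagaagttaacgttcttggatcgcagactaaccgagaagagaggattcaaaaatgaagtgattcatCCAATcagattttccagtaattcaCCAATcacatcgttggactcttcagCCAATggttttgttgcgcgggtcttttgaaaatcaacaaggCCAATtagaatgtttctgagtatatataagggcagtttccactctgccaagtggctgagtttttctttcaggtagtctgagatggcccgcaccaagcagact
The 3 H2B promoters share the same layout near the start, an octamer 46 to 48 bases and a TATAAA 27 to 32 bases before it, whereas the H3C8 window holds 4 CCAAT and no match to the other 2 motifs, and the H4C14 window holds no match to any of the 3. Among members that rose with both compounds in both lines, TATAAA was found in 16 of 21, CCAAT in 16 and the octamer in 11, and among the other 37 members in 23, 32 and 15. A match is a run of letters only and was not tested as a binding site.

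Treatment with either compound raised the core histone genes broadly in TMD8 and more selectively in DoHH2. A gene was called when its adjusted p was under 0.05 in limma, from its brightest probe, with p-values adjusted by Benjamini-Hochberg over all 47231 probes. In TMD8 cells 54 of 63 members rose under ITF-A and 51 under ITF-B, where 19.2% and 19.3% of all genes rose. In DoHH2 cells 23 members rose under ITF-A and 22 under ITF-B, against 19% and 18.8% of all genes. The one member called lower in any of them was H2AC16, with ITF-B in DoHH2 and with ITF-A in TMD8, by limma (adjusted p = 0.0442 and 0.0456). The change was -0.17 in each, from a dim probe, and 17% and 17.8% of all genes fell in those comparisons, against 17.2% with ITF-A in DoHH2 and 17.4% with ITF-B in TMD8. H2AC16 was named after its values were seen. The median log2 fold change of the members was 0.62 and 0.75 in TMD8 with ITF-A and ITF-B, and 0.13 and 0.12 in DoHH2, while the median over all genes was within 0.01 of 0.

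**Figure D1:**
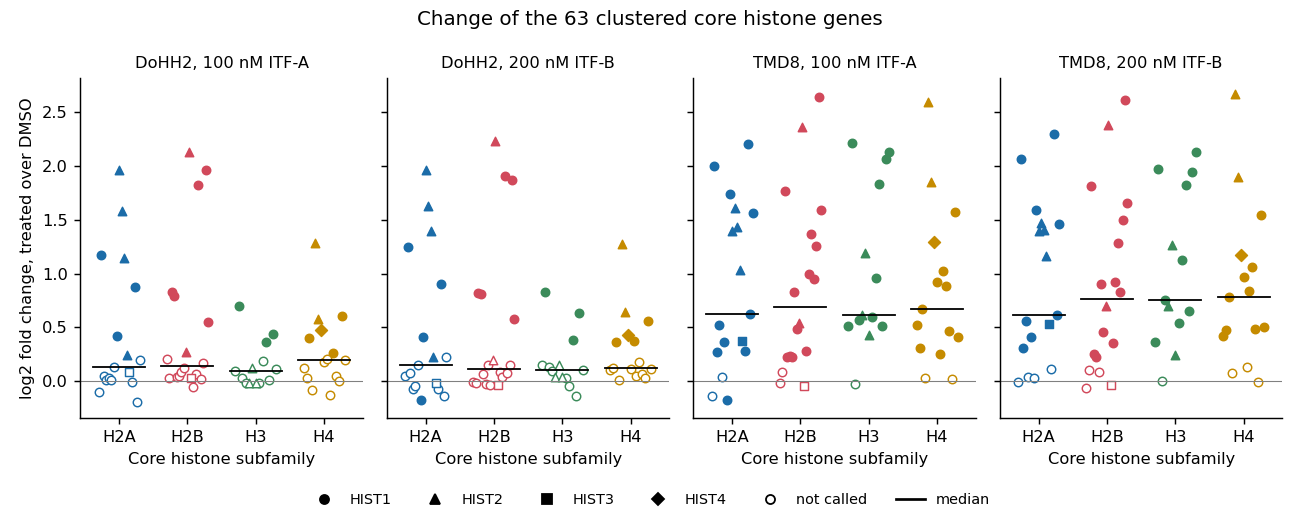
Each point is 1 of the 63 members, with its log2 fold change (treated over DMSO, 3 arrays against 3) on the vertical axis, grouped by subfamily along the horizontal axis and shaped by cluster. Filled points were called, open points were not, and bars are subfamily medians, which lie near 0.1 to 0.2 in DoHH2 and near 0.6 to 0.8 in TMD8.

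Of the 63 members, 21 rose in all 4 comparisons, 0 fell in all 4 and 0 were called in opposite directions in the 2 lines, where 11.2%, 9.92% and 2.65% of all genes did so. Another 28 members rose with both compounds in TMD8 and with neither in DoHH2, against 4.76% of all genes. Counting arrays alone, all 3 treated arrays lay above all 3 DMSO arrays for 52 members with each compound in TMD8 (22.8% and 22.6% of all genes) and for 31 and 29 in DoHH2 (23% and 23.4% of all genes). Slide 1 held 2 arrays of each TMD8 group, and within it alone 52 and 49 members rose in TMD8 with ITF-A and ITF-B. Slide 2 held 2 arrays of each DoHH2 group, and within it alone 22 and 22 members rose in DoHH2. The other line had 1 array per group on each slide, so its counts are not given. The share of all genes that rose within a single slide was not counted. The 8 members called in no comparison were H2AC1, H2AC14, H2BC1, H2BC10, H2BC26, H3C11, H4C7 and H4C13. H2AC1 and H2BC1 are neighbours best known for their expression in the testis.

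Among the H2B genes the largest mean change was that of H2BC21 (older name HIST2H2BE), a HIST2 gene known to make polyadenylated mRNA. In DoHH2 cells its normalized log2 level was 6.74, 6.32 and 6.45 in the DMSO arrays and 8.61, 8.40 and 8.88 with ITF-A, and 6.68, 6.32 and 6.60 against 8.70, 8.54 and 9.04 with ITF-B. In TMD8 cells it was 9.44, 9.31 and 9.40 against 11.75, 11.77 and 11.70 with ITF-A, and 9.50, 9.48 and 9.39 against 11.92, 11.79 and 11.82 with ITF-B. All treated arrays of a line were above all its DMSO arrays, and the treated DoHH2 arrays stayed below the DMSO arrays of TMD8. The log2 fold change was 2.13 ± 0.10 (SE, n = 3 per group) and 2.23 ± 0.10 in DoHH2 and 2.36 ± 0.10 and 2.38 ± 0.10 in TMD8 for ITF-A and ITF-B, which is 4.37-fold to 5.21-fold (limma adjusted p of 4.36e-20 or lower in each). Each SE holds for the main settings only. Over the alternative settings the DoHH2 values ran from 1.73 to 2.68 and from 1.82 to 2.78, and the TMD8 values from 2.29 to 2.42 and from 2.31 to 2.44.

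H2BC8 (HIST1H2BG) reached the same size of change from lower levels. Its DoHH2 levels were 6.35, 6.22 and 6.20 in DMSO and 8.29, 8.21 and 8.16 with ITF-A, and 6.37, 6.32 and 6.19 in DMSO and 8.30, 8.04 and 8.15 with ITF-B. In TMD8 cells the arrays read 7.53, 7.40 and 7.43 in DMSO and 10.23, 9.93 and 10.11 with ITF-A, and 7.77, 7.50 and 7.53 in DMSO and 10.30, 10.14 and 10.19 with ITF-B. No treated array overlapped a DMSO array of its line. The changes were 1.96 ± 0.07 and 1.87 ± 0.07 in DoHH2, and 2.64 ± 0.07 and 2.61 ± 0.07 in TMD8, for ITF-A and ITF-B.

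H2BC5 was the member with the largest gap between the lines in DMSO, by its brightest probe. DoHH2 arrays read 7.88, 7.68 and 7.64 in DMSO and 9.61, 9.59 and 9.45 with ITF-A, and 7.79, 7.70 and 7.61 in DMSO and 9.56, 9.70 and 9.55 with ITF-B. TMD8 arrays read 11.01, 10.96 and 11.06 in DMSO and 12.51, 12.26 and 12.37 with ITF-A, and 11.17, 11.14 and 11.06 in DMSO and 12.34, 12.42 and 12.45 with ITF-B. H2BC5 rose in both lines without overlap between treated and DMSO arrays, by 1.82 ± 0.07 and 1.91 ± 0.07 in DoHH2 and by 1.37 ± 0.07 and 1.28 ± 0.07 in TMD8. Its probes disagreed about the lines: the next brightest changed by 1.28 and 1.42 in DoHH2 and by 1.82 and 1.73 in TMD8, the opposite order, and the dimmest, annotated to another RefSeq transcript, by 0.06 and 0.18 in DoHH2 and by 1.04 and 0.94 in TMD8.

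H2BC12 (HIST1H2BK) was the brightest H2B gene and moved least among the members called in all 4 comparisons. DoHH2 cells read 10.67, 10.72 and 10.85 in DMSO and 11.41, 11.63 and 11.57 with ITF-A, and 10.68, 10.76 and 10.62 in DMSO and 11.31, 11.60 and 11.57 with ITF-B. TMD8 cells read 13.18, 13.09 and 13.31 in DMSO and 13.48, 13.37 and 13.43 with ITF-A, and 13.08, 13.21 and 13.07 in DMSO and 13.41, 13.37 and 13.33 with ITF-B. Treated and DMSO arrays did not overlap in either line, but the TMD8 gap was narrow. The change was 0.79 ± 0.08 and 0.81 ± 0.08 in DoHH2 and 0.23 ± 0.08 and 0.25 ± 0.08 in TMD8 (limma adjusted p = 0.0217 and 0.0115). The TMD8 calls were lost under 7 and 5 of the alternative settings, with adjusted p from 0.0525 to 0.204, and the highest value on any array was 14.50, so this probe was read near the top of the scale. Its second probe changed by 0.62 and 0.57 in TMD8.

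H2BC9 (HIST1H2BH) was the only member called lower in TMD8 than in DoHH2 in DMSO. DoHH2 levels were 7.25, 7.08 and 7.12 in DMSO and 7.67, 7.69 and 7.75 with ITF-A, and 7.03, 7.08 and 7.15 in DMSO and 7.70, 7.74 and 7.54 with ITF-B. TMD8 levels were 6.76, 6.66 and 6.80 in DMSO and 8.34, 8.22 and 8.41 with ITF-A, and 6.78, 6.58 and 6.59 in DMSO and 8.39, 8.29 and 8.23 with ITF-B. The order of the lines was thus reversed in the treated arrays, where every TMD8 array lay above every DoHH2 array. The gene rose by 0.55 ± 0.07 and 0.57 ± 0.07 in DoHH2 and by 1.59 ± 0.07 and 1.65 ± 0.07 in TMD8.

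**Figure D2:**
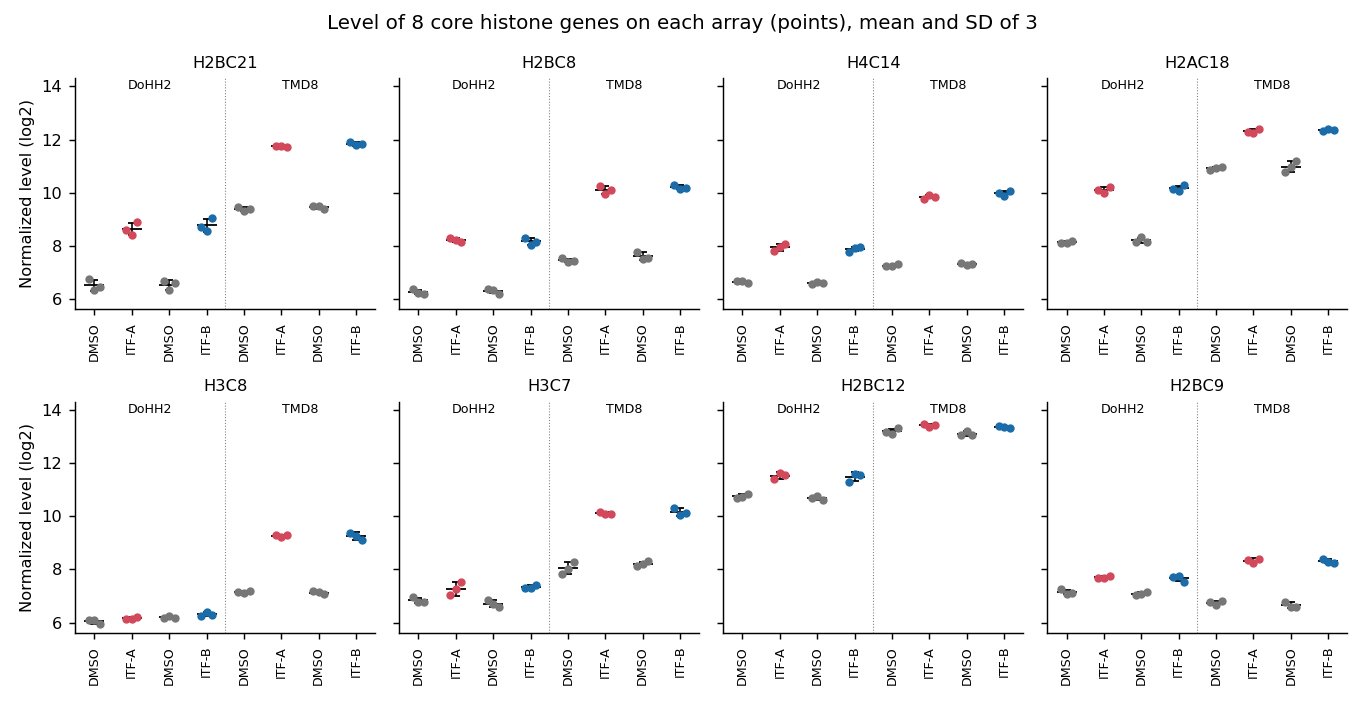
Normalized log2 level (vertical axis) of 8 members on every array, by line and treatment (horizontal axis): points are the 3 arrays of a group, with mean and SD, grey for DMSO, red for ITF-A and blue for ITF-B. H2BC21, H2BC8, H4C14 and H2AC18 rise in both lines, H3C8 rises in TMD8 while its DoHH2 arrays stay between 5.95 and 6.39, and H2BC12 sits near the top of the scale in TMD8.

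The H2A genes with the largest changes were HIST2 members in DoHH2 and HIST1 members in TMD8. H2AC18 and H2AC19 lie in a duplicated segment and encode the same protein, so their probes may share transcripts and their values are not independent. H2AC18 read 8.09, 8.12 and 8.19 in DMSO and 10.10, 10.0004 and 10.19 with ITF-A in DoHH2, and 8.13, 8.31 and 8.15 against 10.12, 10.08 and 10.28 with ITF-B. In TMD8 cells it read 10.86, 10.93 and 10.97 against 12.30, 12.25 and 12.41 with ITF-A, and 10.76, 10.96 and 11.18 against 12.33, 12.41 and 12.35 with ITF-B. It rose without overlap in both lines, by 1.96 ± 0.07 with each compound in DoHH2 and by 1.40 ± 0.07 with each in TMD8. H2AC19 read 7.82, 7.83 and 7.96 against 9.39, 9.35 and 9.60 with ITF-A and 7.82, 7.92 and 7.95 against 9.50, 9.51 and 9.56 with ITF-B in DoHH2. Its TMD8 arrays read 10.44, 10.42 and 10.65 against 11.92, 12.27 and 12.15 with ITF-A and 10.81, 10.53 and 10.61 against 12.08, 12.14 and 12.15 with ITF-B. H2AC19 rose by 1.58, 1.62, 1.61 and 1.47 (SE 0.08 each) with ITF-A and ITF-B in DoHH2 and then in TMD8, again without overlap.

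H2AC11 (HIST1H2AG) and H2AC6 (HIST1H2AC) were the leading H2A genes of HIST1. H2AC11 read 6.17, 6.22 and 6.16 against 7.39, 7.24 and 7.43 with ITF-A, and 6.17, 6.15 and 6.09 against 7.45, 7.24 and 7.45 with ITF-B, in DoHH2. In TMD8 cells it read 7.89, 7.76 and 8.004 against 9.91, 9.81 and 9.92, and 7.83, 7.68 and 8.05 against 9.79, 9.80 and 10.16. It rose by 1.17 ± 0.09 and 1.25 ± 0.09 in DoHH2 and by 1.99 ± 0.09 and 2.06 ± 0.09 in TMD8. Its second and dimmer probe changed by 0.13 and 0.05 in DoHH2, neither called, and by 0.42 and 0.28 in TMD8. H2AC6 read 6.73, 6.52 and 6.44 against 7.46, 7.39 and 7.47 with ITF-A, and 6.56, 6.49 and 6.60 against 7.46, 7.44 and 7.46 with ITF-B, in DoHH2. Its TMD8 arrays read 8.61, 8.46 and 8.80 against 10.86, 10.70 and 10.91, and 8.80, 8.74 and 8.70 against 10.995, 10.98 and 11.14. H2AC6 rose by 0.88 ± 0.08 and 0.90 ± 0.08 in DoHH2, and by 2.20 ± 0.08 and 2.29 ± 0.08 in TMD8, with no overlap in either line.

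H4C14 (HIST2H4A) had the largest change of the H4 genes in all 4 comparisons. In DoHH2 cells the arrays read 6.69, 6.67 and 6.59 in DMSO and 7.81, 7.94 and 8.05 with ITF-A, and 6.57, 6.63 and 6.59 in DMSO and 7.77, 7.91 and 7.94 with ITF-B. In TMD8 cells the values were 7.22, 7.23 and 7.29 against 9.78, 9.91 and 9.85, and 7.35, 7.27 and 7.32 against 9.9999, 9.89 and 10.06. H4C14 rose in every treated array, by 1.28 ± 0.07 with each compound in DoHH2 and by 2.60 ± 0.07 and 2.67 ± 0.07 in TMD8, which is 6.04-fold and 6.35-fold. Its near-identical copy H4C15 changed by 0.57 and 0.64 in DoHH2 and by 1.85 and 1.90 in TMD8, and reads of this pair cannot be taken as independent. H4C3, the brightest member (mean log2 level 12.95; named after its values were seen), was called higher with ITF-B in DoHH2 (0.38 ± 0.09) and with ITF-A in TMD8 (0.26 ± 0.09), and its other changes were 0.21 ± 0.09 and 0.14 ± 0.09.

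H3C8, H3C7 and H3C4 were the members with the largest difference of change between the lines, by the mean of the compounds. H3C8 (HIST1H3G) read 6.09, 6.08 and 5.95 in DMSO and 6.14, 6.13 and 6.20 with ITF-A in DoHH2, and 6.17, 6.24 and 6.18 against 6.24, 6.39 and 6.29 with ITF-B. In TMD8 cells it read 7.17, 7.11 and 7.17 against 9.30, 9.23 and 9.29 with ITF-A, and 7.18, 7.15 and 7.06 against 9.39, 9.26 and 9.11 with ITF-B. All 12 DoHH2 arrays were near the median of all probes, 6.16, whereas the treated TMD8 arrays were far from their DMSO arrays. The change was 0.12 ± 0.07 and 0.11 ± 0.07 in DoHH2 (limma adjusted p = 0.246 and 0.307) and 2.13 ± 0.07 and 2.12 ± 0.07 in TMD8.

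H3C7 (HIST1H3F) and H3C4 (HIST1H3D) rose in both lines but far more in TMD8. For H3C7 the DoHH2 arrays read 6.96, 6.77 and 6.76 against 7.02, 7.25 and 7.54 with ITF-A, and 6.85, 6.68 and 6.59 against 7.29, 7.31 and 7.42 with ITF-B. Its TMD8 arrays read 7.84, 8.03 and 8.30 against 10.16, 10.10 and 10.09, and 8.14, 8.20 and 8.30 against 10.31, 10.03 and 10.12. H3C7 rose by 0.44 ± 0.10 and 0.63 ± 0.10 in DoHH2, where the ITF-A arrays were spread from 7.02 to 7.54, and by 2.06 ± 0.10 and 1.94 ± 0.10 in TMD8. For H3C4 the DoHH2 arrays read 6.31, 6.15 and 6.12 against 6.60, 6.53 and 6.55 with ITF-A, and 6.13, 6.32 and 6.15 against 6.62, 6.64 and 6.50 with ITF-B. Its TMD8 arrays read 7.27, 7.32 and 7.26 against 9.05, 9.05 and 9.24, and 7.18, 7.21 and 7.31 against 9.05, 9.001 and 9.12. H3C4 rose by 0.37 ± 0.07 and 0.39 ± 0.07 in DoHH2 and by 1.83 ± 0.07 and 1.82 ± 0.07 in TMD8, and no treated array of H3C4 or H3C7 overlapped a DMSO array of its own set.

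By subfamily, most genes of each kind of core histone rose in TMD8. The members that rose with both compounds there, as 17.2% of all genes did, were 13 of 17 H2A, 14 of 18 H2B, 12 of 13 H3 and 12 of 15 H4 genes. In DoHH2 cells they were 7 of 17 H2A, 6 of 18 H2B, 3 of 13 H3 and 5 of 15 H4 genes, where 16.7% of all genes rose with both compounds, and the H3 count is near that share. The median change with ITF-A in TMD8 was 0.62 for H2A, 0.69 for H2B, 0.62 for H3 and 0.67 for H4, and with ITF-B it was 0.61, 0.76, 0.75 and 0.78 in the same order. Changes above 1 on the log2 scale in DoHH2 were found for 4 H2A, 3 H2B and 1 H4 gene with each compound and for no H3 gene, the largest H3 values being 0.70 and 0.83 for H3C10. In TMD8 cells 24 members passed that size for ITF-A and 25 for ITF-B, among them 5 and 6 H3 genes. The share of all genes that passed that size was not counted, so these counts cannot be set against it. These counts describe the subfamilies, whose differences were not tested because members are not replicates.

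By cluster, the HIST2 genes had the largest median changes. By their brightest probes all 11 HIST2 members rose with both compounds in TMD8, with a median change of 1.40 for each. In DoHH2 8 and 7 of them rose with ITF-A and ITF-B (medians of 0.57 and 0.64). The dimmer probes of H2BC18 were not called in TMD8 (0.16 and 0.09, and 0.07 and 0.09), nor was the dimmest of H3C13 with ITF-B (0.08). The 49 HIST1 members had medians of 0.57 and 0.61 in TMD8, with 41 and 38 higher, and of 0.12 and 0.11 in DoHH2, with 14 higher for each. Of all genes 19.2% and 19.3% rose in TMD8 and 19% and 18.8% in DoHH2. Within HIST2 all 4 H2A genes and both H4 genes rose in all 4 comparisons, whereas the 3 H3 genes, near-identical copies, rose in TMD8 and lay between -0.01 and 0.15 in DoHH2. HIST2 probes were also brighter, with a median rank at the 80.2 percentile of all probes against 63.9 for HIST1. H2AC25 of HIST3 rose in TMD8 (0.38 and 0.53), H2BC26 did not pass the test anywhere, and H4C16 of HIST4 rose in all 4 comparisons (0.47 and 0.44 in DoHH2, 1.30 and 1.17 in TMD8).

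Along chromosome 6 the HIST1 members form 4 blocks separated by gaps of over 200 kb in GRCh38.p14. The first block is the pair H2AC1 and H2BC1, which was not called anywhere. The second block, from H3C1 to H4C8, held 27 members, of which 25 and 23 rose in TMD8 with ITF-A and ITF-B (medians of 0.95 and 0.92) and 8 with each in DoHH2 (0.13 and 0.11). The next block, from H2BC11 to H2AC12, held 5 members, which all rose in TMD8 (medians of 0.41 and 0.51). In DoHH2 3 of them rose, with medians of 0.79 and 0.81. These DoHH2 medians are the values of H2BC12, whereas H2BC11, H2AC11, H4C9 and H2AC12 each changed more in TMD8 by their brightest probes. The last block, from H2BC13 to H2BC17, held 15 members, of which 11 and 10 rose in TMD8 (medians of 0.37 and 0.46) and 3 with each compound in DoHH2. Of all genes 19.2% and 19.3% rose in TMD8 and 19% and 18.8% in DoHH2, and 3 of 15 is near that DoHH2 share. Strong and weak changes stood side by side within a block: with ITF-A in TMD8 H2BC8 changed by 2.64 and its neighbour H4C5 by 0.88, and H3C10 by 2.21 and its neighbour H2AC13 by 0.53.

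**Figure D3:**
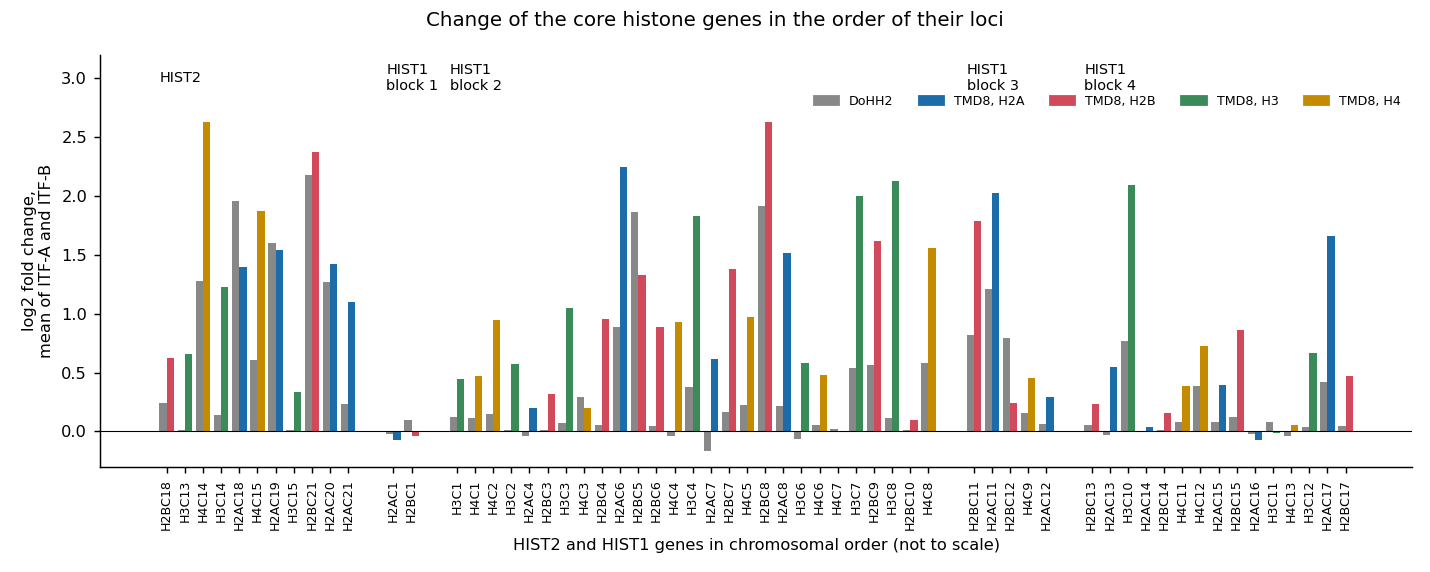
Log2 fold change (vertical axis, mean of ITF-A and ITF-B) of the HIST2 and HIST1 members in chromosomal order (horizontal axis, not to scale), in grey for DoHH2 cells and coloured by subfamily for TMD8 cells. All 11 HIST2 genes stand above 0 in TMD8, block 1 of HIST1 lies near 0, and tall and short bars alternate in blocks 2 and 4.

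H2A and H2B genes often lie head to head and share the DNA between their starts as a common promoter. Promoter records gave 11 such H2A and H2B pairs, with starts 194 to 248 bases apart. In 8 of the 11 pairs both genes rose with both compounds in TMD8, where 51 of the 63 members and 17.2% of all genes did so. Whether that count differs from the rate of the members was not tested. The H2B gene had the higher mean change in TMD8, sign included, in 6 of 11 pairs. Among these was H2BC1 (-0.04) with H2AC1 (-0.07), neither of which was called. Partners could differ widely: with ITF-A in TMD8 H2BC8 changed by 2.64 and its partner H2AC8 by 1.56, and in DoHH2 by 1.96 and 0.20. The pair H2BC4 and H2AC6 ran the other way, at 0.996 and 2.20 in TMD8 and 0.07 and 0.88 in DoHH2. H2BC21 and H2AC20 both rose in all 4 comparisons, at 2.36 and 1.43 in TMD8 and 2.13 and 1.14 in DoHH2 with ITF-A. H2BC11 and H2AC11 also rose together in all 4 comparisons, at 1.77 and 1.99 in TMD8 and 0.83 and 1.17 in DoHH2.

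Most members were higher in TMD8 than in DoHH2 before any compound was added. Over 6 DMSO arrays a line, 38 members were called higher in TMD8 and 1 lower, where 21.2% of all genes were higher, 22.6% lower and 43.7% called in either direction. By brightest probe the largest gaps were those of H2BC5, at 3.38 ± 0.05 on the log2 scale (10.4-fold), and H2BC21, at 2.88 ± 0.08 (7.36-fold). The other probes of H2BC5 gave 2.63 and 0.16, the latter not called (limma adjusted p = 0.0932). H2BC9 was the exception, at -0.41 ± 0.05 (limma adjusted p of 1.48e-08). DMSO levels were below the median probe for 35 members in DoHH2 and for 19 in TMD8. By subfamily 10 of 17 H2A, 10 of 18 H2B, 9 of 13 H3 and 9 of 15 H4 genes were higher in TMD8, and by cluster 10 of 11 HIST2 and 27 of 49 HIST1 genes.

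**Figure D4:**
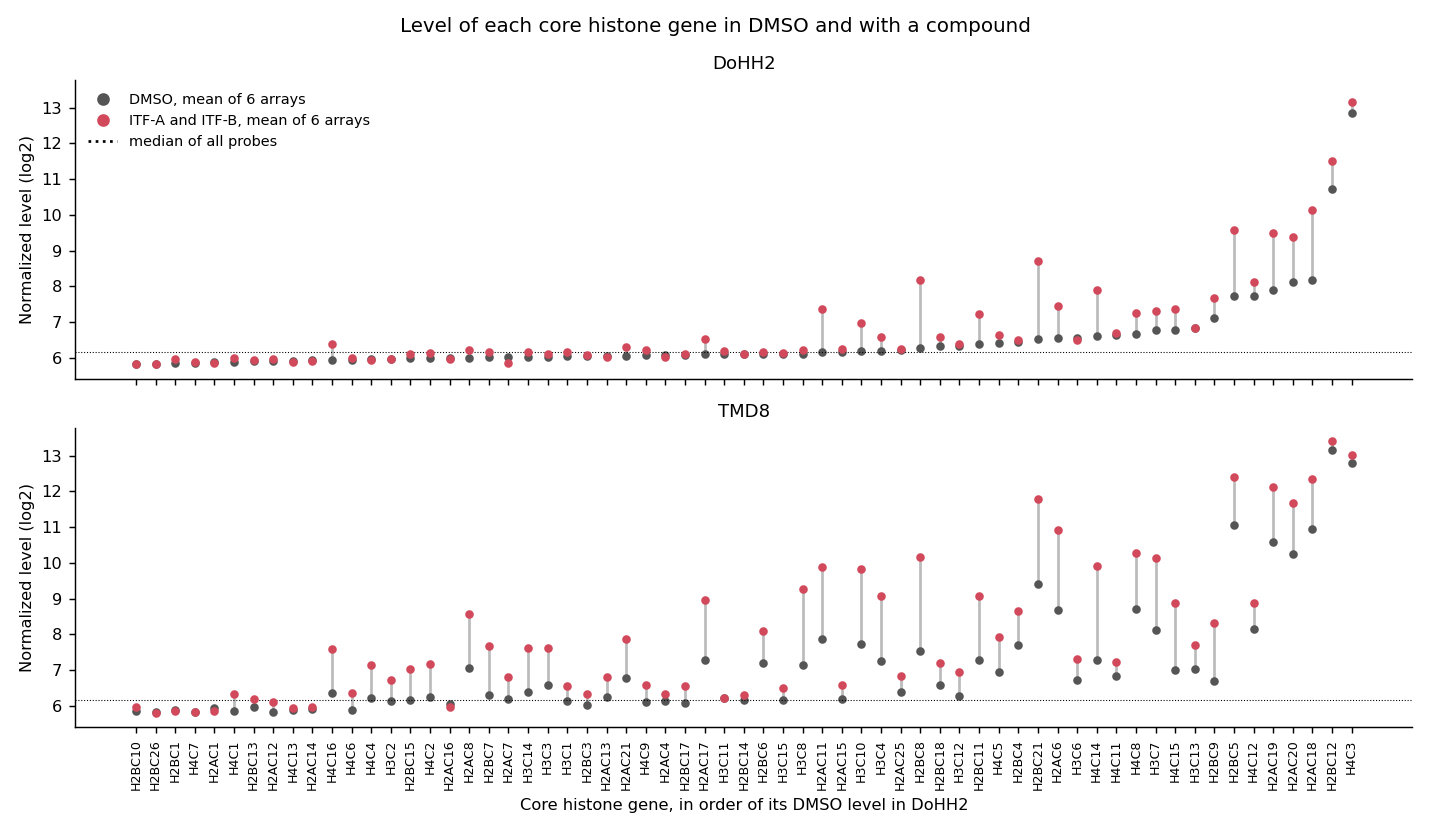
Normalized log2 level (vertical axis) of every member in DMSO (grey, mean of 6 arrays) and with a compound (red, mean of 6 arrays) in DoHH2 (top) and TMD8 cells (bottom), ordered along the horizontal axis by DMSO level in DoHH2. The dotted line is the median of all probes, 6.16: 35 members start below it in DoHH2 and 19 in TMD8.

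The size of the change also differed between the lines, and that difference was tested directly as the change in TMD8 minus the change in DoHH2. The members whose change was larger in TMD8 numbered 39 for ITF-A and 38 for ITF-B, where 11.4% and 11.8% of all genes had a larger change there, and 33 of them were shared by the compounds. A smaller change in TMD8 was called for 4 and 3 members, where 11% and 10.8% of all genes had one, and H2AC18, H2BC5 and H2BC12 were the 3 shared, each by its brightest probe only. By the mean of the compounds H3C8 had the largest difference, at 2.01 ± 0.10 and 2.02 ± 0.10, followed by H3C7 (1.62 ± 0.14 and 1.30 ± 0.14) and H3C4 (1.47 ± 0.10 and 1.43 ± 0.10). The difference was -0.57 ± 0.11 and -0.56 ± 0.11 for H2AC18, -0.45 ± 0.10 and -0.62 ± 0.10 for H2BC5, and -0.56 ± 0.11 and -0.55 ± 0.11 for H2BC12. Their other probes did not bear this out: the second probe gave -0.34 and 0.05 for H2AC18 (limma adjusted p = 0.167 and 0.915) and -0.26 and -0.08 for H2BC12 (0.159 and 0.789), and the others of H2BC5 gave 0.54 and 0.31, and 0.97 and 0.76. The brightest probes also lost the call in places, at -0.22 with ITF-A for H2BC5 in the authors' table, and on slide 2 alone at -0.32 with ITF-A for H2BC5, -0.30 with ITF-B for H2AC18, and -0.53 and -0.41 for H2BC12. H2BC21 differed by 0.23 ± 0.15 and 0.15 ± 0.15 (limma adjusted p = 0.399 and 0.647). Within slide 1 alone the difference was called in either direction for 33 and 35 members with ITF-A and ITF-B, and within slide 2 alone for 32 and 36, against 43 and 41 on both slides, where 22.4% and 22.5% of all genes were called. On slide 1 each DoHH2 group had 1 array and on slide 2 each TMD8 group had 1, which was taken to vary like the other groups.

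**Figure D5:**
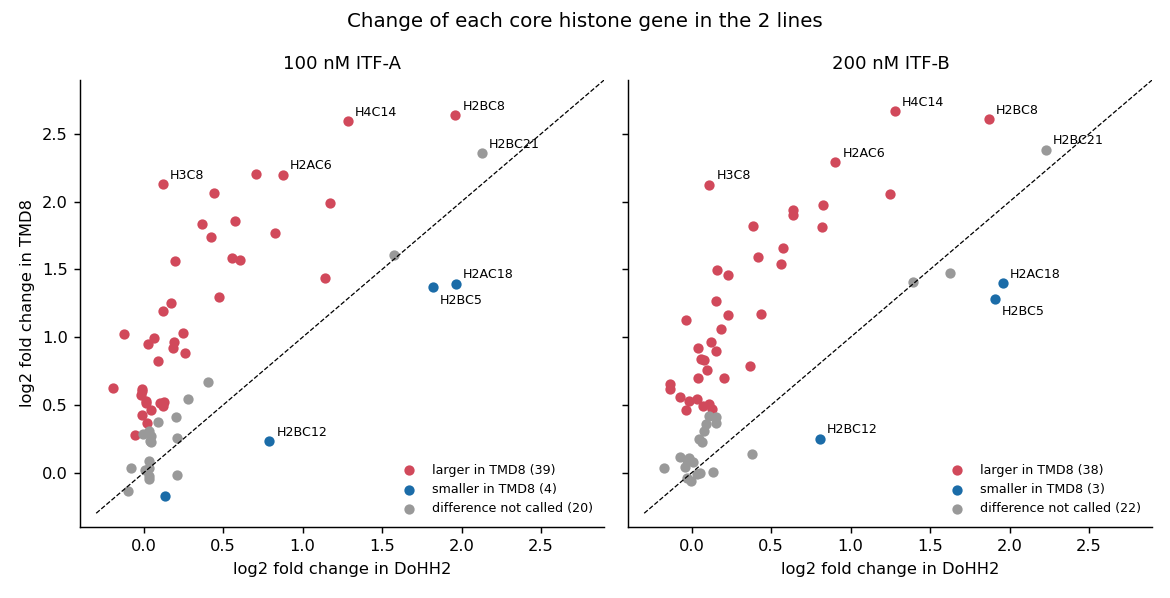
Log2 fold change of each of the 63 members in DoHH2 (horizontal axis) and TMD8 cells (vertical axis), for ITF-A (left) and ITF-B (right), coloured by whether the difference between the lines was called; the dashed line marks equal change. Most points lie above the line, with H3C8 near 0 in DoHH2, and H2AC18, H2BC5 and H2BC12 lie below it.

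Low level and lack of a call went together in DoHH2. Of the 42 members that did not rise with both compounds there, 32 had DMSO levels below the median probe, as did 3 of the 21 that rose, and 24 of the 51 that rose with both compounds in TMD8 were below it in DoHH2. The part of low probe brightness in the difference between the lines was not tested. Across the 63 members the mean change in DoHH2 and in TMD8 correlated with r of 0.69 (Spearman 0.727), a description over genes that share arrays and probe brightness.

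The doses of the compounds differed, so their values stand side by side without a comparison. In DoHH2 cells the rise of the 21 members called with both compounds ran from H2BC21, at 2.13 with 100 nM ITF-A and 2.23 with 200 nM ITF-B, down to H2AC21, at 0.25 and 0.23. In TMD8 cells the top members were H2BC8, at 2.64 and 2.61, and H4C14, at 2.60 and 2.67.

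The RefSeq gene span, introns included, is over 1000 bases for 8 members, among them H2BC5, H2BC12, H2BC21 and H3C4; it is not the length of an mRNA. These 8 had median changes of 0.47 and 0.51 in DoHH2 and 1.18 and 1.10 in TMD8 with ITF-A and ITF-B, and their median probe rank was the 79.4 percentile. The other 55, with spans of 386 to 569 bases, had medians of 0.12 and 0.11 in DoHH2 and 0.62 and 0.70 in TMD8, at a median rank of 65.2. The span was chosen as a divide after the values were seen.

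Genes that make, process and carry histones are given as counts to be read against all genes, of which 18.8% to 19.3% rose and 17% to 17.8% fell in a comparison. Of 16 genes for transcription of histone genes, 5 rose and 3 fell with each compound in DoHH2, and 5 and 3 rose and 2 and 1 fell in TMD8 with ITF-A and ITF-B. NPAT, the coactivator that switches histone genes on at S phase entry, rose by 0.24 and 0.23 in DoHH2 and by 0.25 with ITF-A in TMD8, and its value with ITF-B there was 0.09 ± 0.07. ZNF143, a transcription factor, rose by 0.33, 0.31, 0.66 and 0.61, and CDK2, the S-phase kinase that acts on NPAT, rose by 0.40, 0.35, 0.46 and 0.44. NFYC, a subunit of the factor that binds CCAAT, fell in all 4 comparisons, with values of -0.92, -0.94, -0.75 and -0.72.

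Among 25 genes of histone pre-mRNA processing and mRNA decay 5 rose and 13 and 12 fell in DoHH2, and 4 rose and 11 fell in TMD8. SLBP rose in all 4, by 0.23 and 0.32 in DoHH2 and by 0.74 and 0.77 in TMD8, and so did ERI1, an exonuclease that trims histone mRNA ends, by 0.48, 0.41, 0.71 and 0.75. CSTF2, a cleavage factor shared with polyadenylation, was lower at -0.95, -0.76, -0.69 and -0.57, and the exosome nuclease EXOSC10 at -0.83, -0.90, -0.82 and -0.93. Of 15 genes of mRNA polyadenylation 1 rose and 7 fell with each compound in DoHH2, and 4 rose and 4 and 5 fell in TMD8. CLP1 rose by 0.50, 0.54, 0.48 and 0.62, and the poly(A)-binding protein gene PABPN1 was lower at -0.85, -0.79, -0.87 and -0.90 and CPSF6 at -0.41, -0.47, -0.28 and -0.32. Among 24 histone chaperone genes 4 rose and 9 fell in DoHH2, and 6 and 7 rose and 5 fell in TMD8. ASF1B, which carries H3 and H4 to replicating DNA, rose by 1.01, 0.76, 1.21 and 1.14, TSPYL2 rose by 0.63, 0.68, 0.89 and 0.86, and SET and the importin gene IPO4 fell in all 4, with values of -1.19 and -0.89 for ITF-A in DoHH2.

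Of 37 genes of DNA replication 4 rose and 22 and 23 fell in DoHH2 with ITF-A and ITF-B (medians of -0.27 and -0.30), and 5 and 6 rose and 14 and 16 fell in TMD8 (medians of -0.09 and -0.13), beside the same shares of all genes. GINS3, a helicase subunit, was lower at -1.37, -1.31, -1.64 and -1.61, and TYMS, thymidylate synthase, at -1.87, -2.09, -1.01 and -1.06. TK1, thymidine kinase, rose by 1.36, 1.24, 1.92 and 1.77 and POLA1, a DNA polymerase subunit, by 0.32, 0.35, 0.26 and 0.20. The part of cell cycle position in the histone values was not tested.

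Of 9 linker histone H1 genes 2 rose in DoHH2 with each compound, and 6 and 5 rose and 1 and 0 fell in TMD8. H1-10, which lies apart from the clusters and makes polyadenylated mRNA, rose by 2.85, 2.80, 2.86 and 2.78, and H1-2, which lies in HIST1, by 1.78, 1.92, 1.20 and 1.34. Of 14 replacement histone variants, which are made outside S phase, 5 rose and 3 fell with each compound in DoHH2, and 4 and 5 rose and 2 and 3 fell in TMD8. H3-3B rose by 1.81, 2.04, 1.62 and 1.64 and H2AJ by 2.01, 2.06, 1.52 and 1.39, whereas MACROH2A1 was lower at -0.52, -0.46, -0.45 and -0.42 and CENPA, the centromere H3, at -0.53, -0.50, -0.38 and -0.35.

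Libraries of a group correlated at 0.993 to 0.996, and median deposited intensities ranged from 93.2 to 112 per array. All 6 B-cell markers measured were called lower in TMD8 and 3 and 4 in DoHH2, beside the rise of the histone genes, with a mean list level of 8.71 to 9.59 over the DMSO groups and 8.14 to 8.57 over the treated groups. In DMSO 6 of 7 ABC-type markers were higher in TMD8, as its label says, but so were 5 of 8 GCB-type markers, among them BCL6 (3.32) and LMO2 (3.06), whereas the GCB marker MME was higher in DoHH2 (-2.15 as TMD8 minus DoHH2). Beside the rise of the histone genes the ABC-type markers fell in TMD8 for 7 and 6 of 7 (medians of -1.43 and -1.36) and in DoHH2 for 4 of 7 with each compound, where 3 and 2 rose, and their change was called lower in TMD8 than in DoHH2 for 7 and 6. Of 22 markers of T cells, monocytes, epithelial cells and fibroblasts, 3 to 6 rose and 1 or 2 fell in each comparison. The mean levels of these lists lay between 5.96 and 7.03 in all groups, but single markers stood apart. In DMSO an epithelial marker was 4.05 higher in TMD8 and a T-cell marker 1.42 lower. The lowest T-cell marker change in DoHH2 was -1.12 and -1.15 with ITF-A and ITF-B. Of all genes 18.8% to 19.3% rose and 17% to 17.8% fell with a compound, and in DMSO 21.2% were higher in TMD8. The part of the markers in the histone values was not tested.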

How the data were processed

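RNA of 24 cultures was hybridised to HumanHT-12 v4 arrays after oligo(dT)-primed labelling with the TotalPrep kit. The authors deposited unnormalized probe intensity values, and a table of log2 values that were quantile normalized by the authors was used only as an alternative. The study's methods also name a batch correction, and whether that table holds it is not given in the sources used here. Probes were paired with genes through the platform annotation, with symbols updated by gene identifier. Of 47231 probes, 30113 had 1 symbol, 8 several and 17110 none. Here intensities were corrected with normexp (offset of 50), quantile normalized and taken to log2, and fitted with limma 3.58.1 in R 4.3.3 with the 8 groups and the slide (2 slides of 12 arrays) as terms. Adjusted p is Benjamini-Hochberg over all 47231 probes, with a threshold of 0.05, and a gene was read from its brightest probe by mean. No depth exists for arrays, and their number limits the precision: the median standard error was 0.0752 within a line and 0.106 for the difference between lines. P-values rest on 1 spread per probe, estimated from the arrays within all 8 groups of both lines. The arrays were treated as independent, although experiment numbers may tie treated to DMSO cultures.

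Members given array by array were the 8 largest mean changes among those called higher in all 4 comparisons, the 3 largest differences between the lines in each direction, and the extremes between the lines in DMSO. The members and gene lists were chosen with earlier results of these data known. The script was tested on simulated data. Promoters came from RefSeq, whose build (GRCh38.p14) is not that of the authors' annotation, and no probe was placed by coordinate. Alternatives varied the background correction, normalization, probe filter, controls, slide term, replicate block and each left-out array. Doses and time follow the study's methods. Python 3.11.15 and pandas 2.3.3 were used for promoters and figures.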

Additional observations from a re-analysis of the deposited data

Results flagged for a closer look

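The change differed between the lines, by the limma test of the difference itself, for many of the members. With ITF-A it was larger in TMD8 for 39 members and smaller for 4, and with ITF-B for 38 and 3. A larger change was called for 11.4% and 11.8% of all genes with ITF-A and ITF-B, and a smaller one for 11% and 10.8%. The members with a smaller change, 6.35% and 4.76% of the 63, were below those shares. As TMD8 minus DoHH2 on the log2 scale with ITF-A and ITF-B, the H3 genes gave 2.01 and 2.02 (H3C8), 1.62 and 1.30 (H3C7), and 1.47 and 1.43 (H3C4). H4C14 gave 1.31 and 1.39, and the H2A genes H2AC6 and H2AC11 gave 1.32 and 1.39, and 0.82 and 0.81. The H2B genes H2BC9 and H2BC8 gave 1.03 and 1.08, and 0.68 and 0.74. With a normexp offset of 16 the calls were lost for H2AC11 (0.42 and 0.37) and H2BC8 (0.27 and 0.34). The second probe of H2AC11 gave 0.29 and 0.23, neither called (limma adjusted p = 0.115 and 0.282). A smaller change in TMD8 was measured for H2AC18 (-0.57 and -0.56), H2BC12 (-0.56 and -0.55) and H2BC5 (-0.45 and -0.62). These last 3 were among the brightest members in TMD8 and rest on 1 probe each: other probes of H2BC5 gave the opposite sign, and the second probes of H2AC18 (-0.34 and 0.05) and H2BC12 (-0.26 and -0.08) were not called.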

How the results depend on the processing

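Counts of members called higher stayed within 1.5 times under every alternative run except a minimum log2 change of 1, which left 8 and 8 members higher in DoHH2 and 24 and 25 in TMD8 (ITF-A and ITF-B), 13 and 13 with a difference between the lines, and 18 that differed in DMSO. The share of all genes left by that minimum was not counted. The call of H2AC16 as lower did not hold with both DMSO sets as control or with the arrays of the line alone. There the count of lower members went from 1 to 0, with ITF-B in DoHH2 and with ITF-A in TMD8. It was also 0 with probes above the median only and with the minimum change. Those settings could not keep the call, since the probe ranks at the 32.5 percentile and changed by -0.17. Leaving out 1 array gave 21 to 25 and 21 to 24 higher members in DoHH2, 51 to 54 and 48 to 51 in TMD8, 40 to 44 and 39 to 43 with a difference between the lines, and 0 to 1 lower members in DoHH2 and with ITF-A in TMD8. The labels number samples by experiment, and whether a number ties treated to DMSO cultures was not settled: deviations of same-numbered samples correlated at -0.0862 to 0.142, and 6 of 12 treated arrays correlated best with their own number. With the replicate block 23 and 22 members were higher in DoHH2, 54 and 51 in TMD8, 42 and 41 differed between the lines, and 40 differed in DMSO, and it changed no call of the 13 members given array by array.

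For the 13 members given array by array, 3015 of 3042 repeated values kept their call, 22 lost it, 5 gained one and 0 reversed. H2BC12 in TMD8 lost its call with an offset of 16 (adjusted p = 0.0963 and 0.0678 in limma), and without replicate 2 of the DMSO set for ITF-A (0.16), among others. The difference between the lines of H2BC21 was gained without background correction (0.50 and 0.43) and in the authors' table (0.56 and 0.49). The cause was not tested.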
